A study of Arabidopsis thaliana with 48 samples.

Results

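The comparison described here is that of the libraries labelled Salt + PQ + HL + HS with the libraries labelled Salt + PQ + HL, which addresses what heat stress (HS) changed in transcripts of Arabidopsis thaliana seedlings that already received the other stresses. It rests on 6 of the 48 libraries of the series, 3 for each group, and on the 21536 of 32833 genes whose mean over the 48 libraries was at least 10 normalised counts. Both groups were wild-type Col-0 seedlings 10 d after germination, raised from seed on agar medium with 50 mM NaCl (Salt) and 0.05 µM of the herbicide paraquat (PQ), and moved for 1.5 h to high light (HL) of 700 µmol m-2 s-1, at 21 °C in Salt + PQ + HL and at 33 °C in Salt + PQ + HL + HS. Controls, seedlings of the same age without salt, paraquat or a shift, stayed at 50 µmol m-2 s-1 and 21 °C. Each library was made from whole seedlings pooled from many plants, so that root and shoot cells were mixed. P-values measure the spread between such pools within groups, taken per gene over all 48 libraries, so calls also depend on groups outside this comparison. Salt and paraquat were present throughout growth, whereas light and heat acted for the last 1.5 h. The Salt + PQ + HL group is therefore the only baseline here for the added heat label. These conditions are those that the study states, and the transcript markers described below went against the labels. The group without the heat label is called the 3-stress libraries below and the group with it the 4-stress libraries, and values of single libraries are given in the order of replicates 1 to 3.

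Heat stress unfolds proteins, and plant cells answer within minutes by releasing heat shock factors (HSFs), transcription factors that switch on genes of heat shock proteins (HSPs), the chaperones that hold or refold damaged proteins. Warmth also acts on growth through the PIF transcription factors and the circadian clock, and paraquat, salt and strong light raise superoxide, which superoxide dismutases with iron or with copper and zinc remove. HSP101, HSP70 and HSFA2 are the usual transcript markers of heat, and ELIP1, a chloroplast protein that protects against strong light, is one for high light.

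These markers went against the labels. HSP101 (AT1G74310), the disaggregating chaperone, held 1357, 1372 and 1364 normalised counts in the 3-stress libraries and 1141, 1046 and 1227 in the 4-stress libraries, beside 1098 ± 39.7 (SD, n = 3) in the controls. The 3 libraries labelled with heat were thus all below those without it (log2 fold change -0.26 ± 0.04 SE, adjusted p = 5.8e-07, limma with Benjamini-Hochberg adjustment over all genes tested). HSP70 (AT3G12580) held 3440.2, 3720.2 and 3361 in the 3-stress and 2509, 2466 and 2772 in the 4-stress libraries, again without overlap and lower with the heat label. Across the 16 groups of the series, the group means of HSP101 were 1098 to 1364 in Control, PQ + HL + HS and both groups compared here and 16724 to 1986769 in the other 12, and the same 4 groups had the lowest means of HSP70, HSFA2 and HSP17.6II. The ELIP1 mean was 479 to 691 in those 4 groups and 623 to 35384 in the other 12, so the light marker was low in both groups compared here as well. In the rest of the series the heat markers followed the heat label only in part. The highest HSP101 means, from 1279423 in PQ + HS to 1986769 in HL + HS, all belonged to groups with that label. No group without the label had a mean above the 155731 of PQ. Yet the mean of HSP101 was 60609 in Salt, 155731 in PQ and 72276 in HL, which carry no heat label, against 17903 in HS. The HS label thus marked the groups with the highest HSP101 means, but also groups at the control level and groups below Salt, PQ and HL. Whether labels were exchanged between groups was not tested. The libraries are named by their labels throughout, and no direction below is to be read as a response to a temperature or a light level that the transcripts show.

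**Figure D1:**
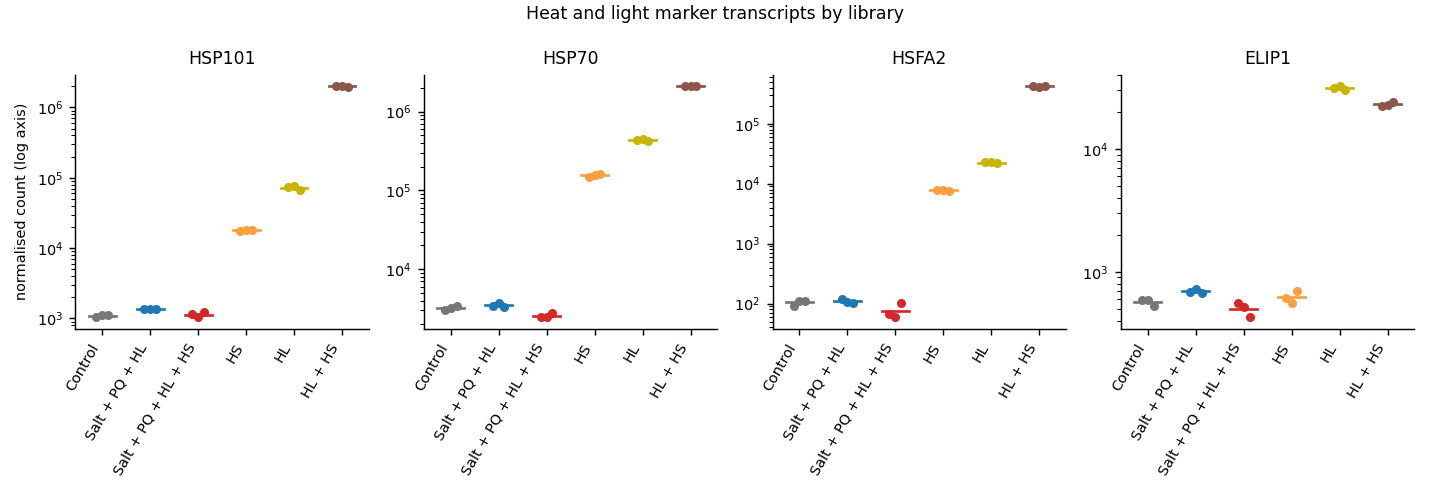
Normalised counts of the heat markers HSP101, HSP70 and HSFA2 and of the light marker ELIP1 in every library (points, log axis) of 6 groups, with lines at the group means. The 3-stress and 4-stress libraries sat at the level of the controls for the 3 heat markers, far below the libraries labelled HS, HL and HL + HS.

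Depth did not separate the groups. The libraries held 75936349 to 82848108 reads on genes in the 4-stress group and 71310884 to 83861200 in the 3-stress group, within 67888254 to 87569857 over the series. Replicates differed from each other by more than sampling noise (chi-square of 3.24 to 4.52 per degree of freedom), and each was counted as a sample. The share of reads on plastid-encoded genes was 0.0207% to 0.0272% in the 4-stress, 0.0184% to 0.0205% in the 3-stress and 0.0220% to 0.0235% in the control libraries, and none of the 82 plastid-encoded or 37 mitochondria-encoded genes tested was called by limma, edgeR or DESeq2 (0 and 3 of them had an unadjusted p under 0.05).

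Of the 21536 genes, 3306 (15.4%) were called higher and 3119 (14.5%) lower in the 4-stress libraries at an adjusted p under 0.05, or 29.8% in either direction. Each count of called list members below is to be set beside these shares. The lists were chosen with earlier results of these data known, so these counts are a description. The changes were small. The median absolute log2 fold change was 0.11 over all genes and 0.21 over the genes called, where the SD of log2 values within a group had a median of 0.05. A fold change of at least 2 was reached by 51 of the genes called higher (0.237% of those tested) and 316 of those called lower (1.47%), 1.7% in either direction. Groups did not overlap, with every 4-stress library on one side of every 3-stress library, for 23.6% of all genes on the higher and 22.9% on the lower side, and for 96.9% of the genes called. When all libraries were scaled to equal totals the median of all genes moved by -0.04 on the log2 scale, and 2154 genes were then higher and 4560 lower, so that the share of higher genes among those called was 32.1% against 51.5% before. Of the 270 called genes among the 434 that are members of the lists below or named, 0 changed direction with equal totals, by edgeR or by DESeq2. After quantile normalization 1 did, the aquaporin PIP1B, and the antenna gene LHCB1.3 and RCA were at 0. Of the uncalled ones 28 changed sign with equal totals, among them AOS and MBF1C, and no direction is given for those. Where a list below had 0 members called in a direction by limma, the count in that direction was also 0 at an unadjusted p under 0.05, by edgeR and by DESeq2, except that 1 jasmonate gene was higher at an unadjusted p and by edgeR and 1 cell cycle gene was higher at an unadjusted p.

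**Figure D2:**
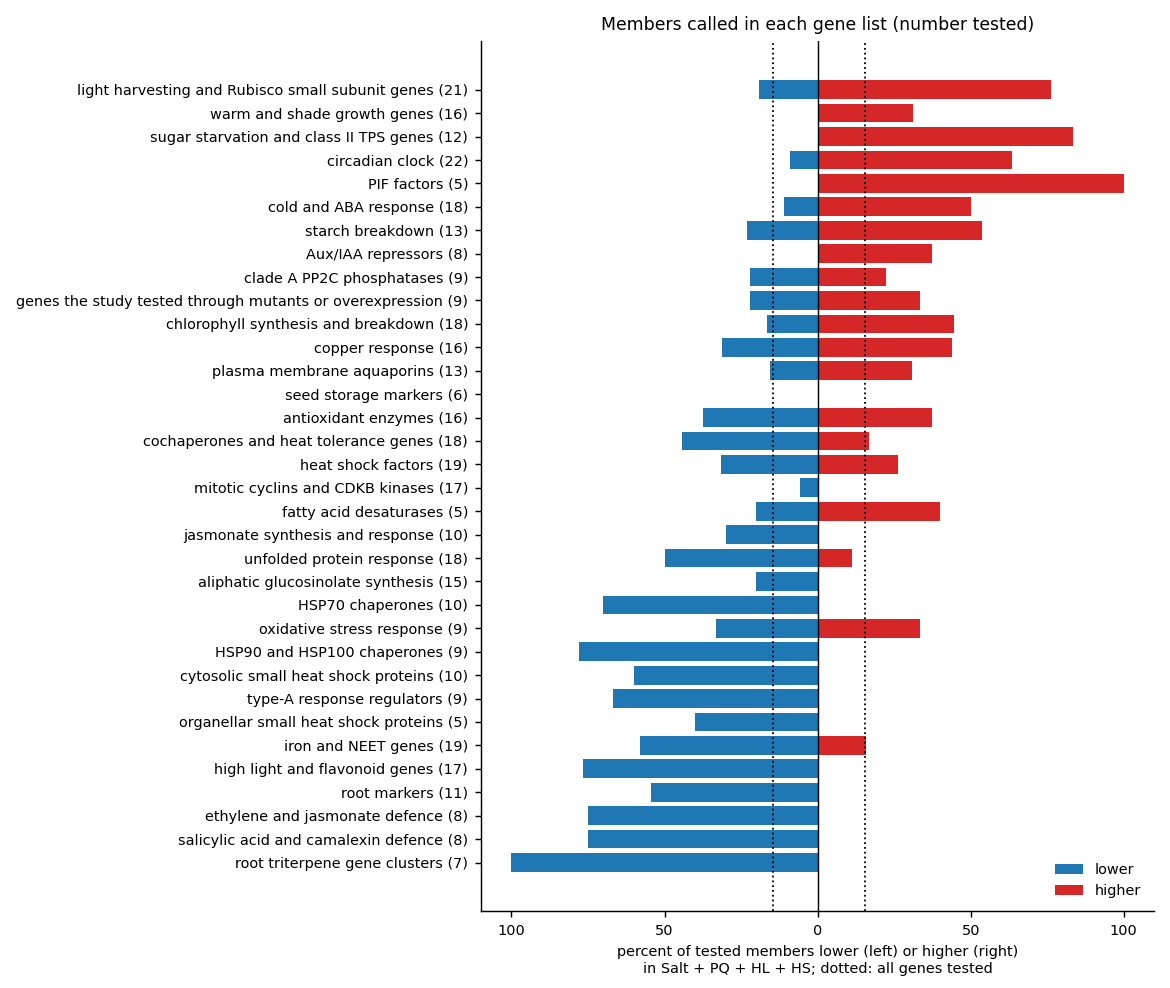
Percent of the tested members of each gene list called higher (right) or lower (left) in Salt + PQ + HL + HS, with the number tested in brackets and dotted lines at 15.4% and 14.5%, the shares over all genes. All 5 PIF factors were higher, and 0 members of the heat shock protein lists were.

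Of the genes in the 4 lists of heat shock proteins, 0 were called higher (15.4% of all genes were) and 22 were called lower (14.5% of all genes were). The cytosolic small HSPs, which hold unfolding proteins, had 6 of 10 tested members lower and 4 uncalled, with a median log2 fold change of -0.30 beside 0.00 over all genes. In the organellar small HSPs 2 of 5 were lower, in the HSP70 family 7 of 10 and in the HSP90 and HSP100 families 7 of 9, with medians of -0.41, -0.16 and -0.28. In the HS libraries against Control, all 10 and all 5 small HSPs were higher, with medians of 6.65 and 6.33, and of the HSP70 list 9 were higher and 1 lower (37.2% of all genes were called higher and 34.2% lower in that comparison).

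HSFA2 (AT2G26150), the heat-induced factor that prolongs the heat response, held 119, 105 and 103 normalised counts in the 3-stress and 67.5, 59.6 and 102 in the 4-stress libraries. Replicate 3 of the 4-stress group lay just under the lowest 3-stress library and the other 2 well below (log2 fold change -0.55 ± 0.09 SE, adjusted p = 5.4e-06). Of the 19 HSF genes tested, 5 (26.3%) were higher, 6 (31.6%) lower and 8 uncalled, beside 15.4% and 14.5% of all genes. Their median was -0.04. HSFA1B, a master regulator of the heat response, was among the higher ones at 0.21 on the log2 scale, and HSFA1D, another, was among the lower ones at -0.12.

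The small HSPs were at low counts. HSP17.6II (AT5G12020) held 54.9, 38.0 and 40.2 in the 3-stress and 14.8, 17.0 and 28.8 in the 4-stress libraries, which did not overlap (log2 fold change -1.13 ± 0.16 SE, adjusted p = 2.7e-07). The class I small HSP AT1G53540 held 49.9, 40.7 and 31.2 without and 17.3, 13.6 and 31.2 with the heat label, so that the groups met at 31.2, the level of replicate 3 in each (log2 fold change -0.997 ± 0.16 SE, adjusted p = 3.7e-06). HSP23.6 (AT4G25200), a mitochondrial small HSP, held 23.3, 23.9 and 27.5 without and 6.58, 17.9 and 17.9 with the heat label (log2 fold change -0.89 ± 0.21 SE, adjusted p = 0.00115). Without 4-stress replicate 1 it was no longer called, with a log2 fold change of -0.45 and an adjusted p of 0.0748. In the HS libraries these 3 genes were higher than in Control by 8.04, 8.28 and 6.99 on the log2 scale.

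The promoter of AT1G53540 is shown because it holds the letters that HSFs bind. It is the stretch of 250 bases before the annotated start, read from the RefSeq genome of build TAIR10.1 at chr1:19980049-19980298 on the plus strand, and the capitals mark 2 overlapping matches to the heat shock element, searched on both strands as GAANNTTC or TTCNNGAA.

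AT1G53540: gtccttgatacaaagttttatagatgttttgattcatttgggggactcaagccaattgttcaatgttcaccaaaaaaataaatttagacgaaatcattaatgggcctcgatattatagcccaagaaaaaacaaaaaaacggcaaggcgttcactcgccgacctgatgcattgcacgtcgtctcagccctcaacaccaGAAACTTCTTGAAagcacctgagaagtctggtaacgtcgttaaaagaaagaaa

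Such a match stood in 15.88% of the 21416 promoters of this length, in 4 of 10 cytosolic small HSP promoters, in 3 of 5 organellar ones, in 0 of 10 of the HSP70 list and in 1 of 9 of the HSP90 and HSP100 list. A match describes the letters only.

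Larger chaperones showed the same sign at higher counts. HSP90.1 (AT5G52640), the heat-induced cytosolic HSP90, held 1454, 1458 and 1477 in the 3-stress and 1132, 1103 and 1279 in the 4-stress libraries, below all controls as well (log2 fold change -0.32 ± 0.03 SE, adjusted p = 2.6e-10). BIP2 (AT5G42020), the HSP70 of the endoplasmic reticulum, held 9073, 9235 and 9148 without and 7011, 6997 and 7275 with the heat label (log2 fold change -0.37 ± 0.03 SE, adjusted p = 1.6e-13). The unfolded protein response list, which serves that compartment, had 9 of 18 members lower, 2 higher and 7 uncalled. Its lower members included BIP1 at -0.28, the calnexin CNX1 at -0.26 and ERDJ3B at -0.24, whereas the sensors BZIP28 and IRE1A were higher, at 0.11 and 0.13. Cochaperones and heat tolerance genes were 3 higher, 8 lower and 7 uncalled of 18, with ROF2 at -0.46 and GOLS1, which makes galactinol, at -0.50.

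The 3 lowest adjusted p-values of the whole comparison were those of superoxide dismutases. FSD1 (AT4G25100), the chloroplast enzyme that carries iron, held 17064, 16017 and 15835 normalised counts in the 3-stress libraries and 35466, 37116 and 35934 in the 4-stress libraries. All 4-stress libraries lay far above the 3-stress libraries, and the controls were higher still at 41511 ± 1822 (SD, n = 3). The rise was 2.22-fold (log2 fold change 1.15 ± 0.03 SE, adjusted p = 8.9e-28). CSD1 (AT1G08830) and CSD2 (AT2G28190), the cytosolic and the plastid enzymes that carry copper and zinc, moved the other way. CSD1 held 12713, 12755 and 12413 in the 3-stress and 6821, 6839 and 6772 in the 4-stress libraries (log2 fold change -0.89 ± 0.03 SE, adjusted p = 5.9e-27), and the 4-stress values lay in a narrow band at the control mean of 6856 ± 73.5 (SD, n = 3). CSD2 held 19234, 18240.4 and 18386 without and 8329.8, 7944 and 8167 with the heat label (log2 fold change -1.19 ± 0.04 SE, adjusted p = 5.9e-27), with 9367 ± 169 (SD, n = 3) in the controls. CCS (AT1G12520), the chaperone that gives both enzymes their copper, held 6536, 6411 and 6542 without and 4116, 3930.1 and 4115 with the heat label (log2 fold change -0.68 ± 0.04 SE, adjusted p = 1.3e-18). Among the 16 antioxidant enzymes tested, 6 were higher, 6 lower and 4 uncalled, with the catalase CAT3 higher by 1.41-fold (log2 fold change 0.50 ± 0.03 SE, adjusted p = 1.0e-15) and the cytosolic ascorbate peroxidase APX1 by 0.15 on the log2 scale.

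When copper is short, the transcription factor SPL7 binds GTAC in promoters of copper uptake genes and of microRNAs such as miR398, whose targets include mRNAs of CSD1, CSD2, CCS and the cytochrome c oxidase subunit AT3G15640. Genes of this response were collected after the values of this comparison had been seen, so their counts, too, are only a description. ZIP2 (AT5G59520), a metal transporter, held 1457, 1481 and 1459 in the 3-stress and 2989, 2904 and 3075 in the 4-stress libraries, with 2774 ± 188 (SD, n = 3) in the controls, and rose 2.04-fold (log2 fold change 1.03 ± 0.07 SE, adjusted p = 1.8e-16). COPT2 (AT3G46900), a copper importer of the root, held 490.0, 509 and 494 without and 919, 879 and 853 with the heat label and rose 1.77-fold (log2 fold change 0.83 ± 0.08 SE, adjusted p = 1.1e-11). In both genes the 4-stress libraries overlapped the range of the controls while the 3-stress libraries lay below it.

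Of the 16 copper list genes tested 7 were higher, 5 lower and 4 uncalled. The higher ones also included the copper reductase FRO4 at 0.68 on the log2 scale, the basic helix-loop-helix factor AT1G71200 at 1.25, the chaperone CCH at 0.38, YSL2 at 0.50 and the importer COPT1 at 0.24. The copper proteins ARPN, LAC3 and LAC13 were lower, at -0.67, -0.64 and -0.65, as was AT3G15640, at -0.24. The precursor of miR398c (AT5G14565) was below the filter and was not tested. It held 6.66, 1.77 and 5.2 normalised counts in the 3-stress libraries and 17.3, 11.9 and 14.8 in the 4-stress libraries, without overlap, but such libraries are not made to catch microRNAs and the mature form was not measured.

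**Figure D3:**
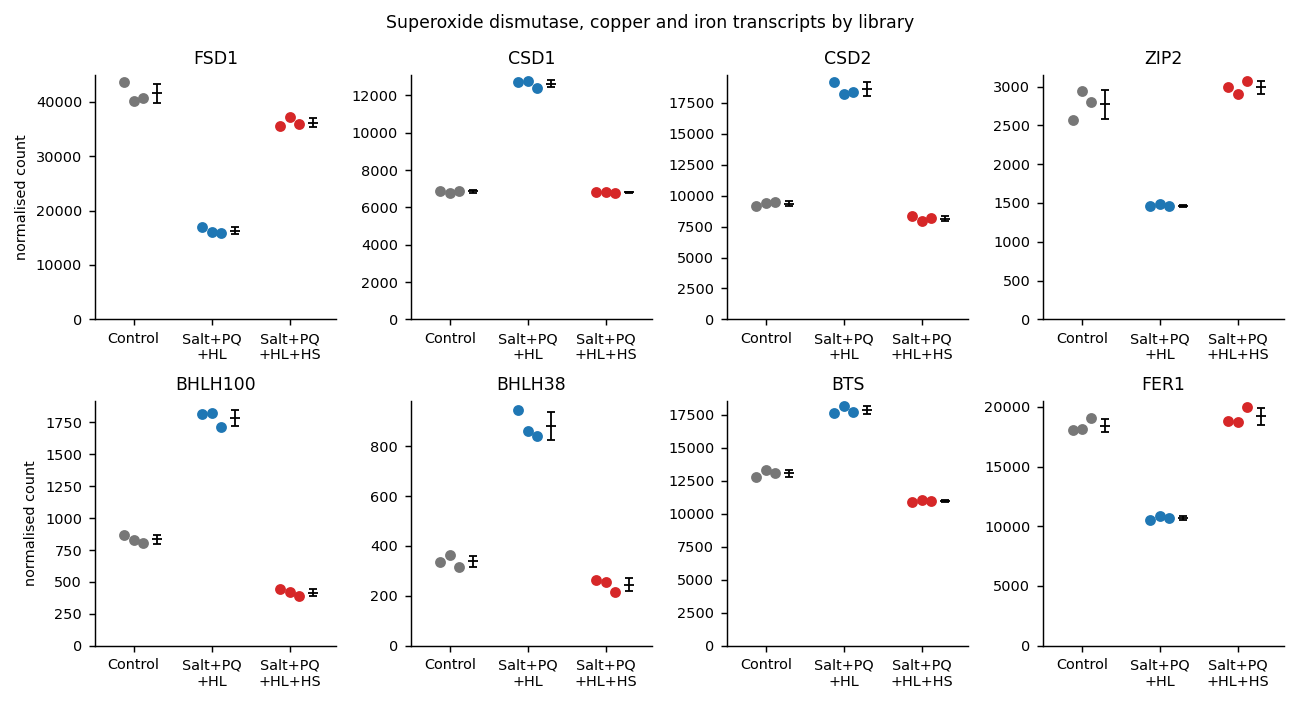
Normalised counts of superoxide dismutase, copper and iron transcripts in each library (points) of the control, 3-stress and 4-stress groups, with bars for the mean ± SD of 3 libraries on axes from 0. In every panel the 4-stress libraries stood apart from the 3-stress libraries, and those of CSD1, ZIP2 and FER1 overlapped the controls.

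The mature miR398 sequences are printed with the stretches of the target mRNAs that pair with them best when no gap is allowed. These mRNAs were called lower here, and the part of the microRNA in that was not tested. Pairing with a gap was not searched, so the stretch and capitals shown for CSD2, the worst scorer, may miss a better paired register. In the microRNAs the capitals mark the seed, bases 2 to 8, which the 3 copies share, and in the mRNAs they mark the bases that face it. Sequences are from RefSeq build TAIR10.1, at chr2:1041012-1041032 for miR398a, chr5:4691107-4691127 for miR398b and chr5:4694778-4694798 for miR398c, all on the plus strand. The mRNA stretches lie at chr1:2827177-2827685 on the plus strand in the leader of CSD1, where an intron splits it, at chr2:12015572-12015592 on the plus strand in the coding region of CSD2, at chr1:4267521-4267541 on the minus strand in the coding region of CCS and at chr3:5299204-5299224 on the plus strand in the leader of AT3G15640.
miR398a-3p: uGUGUUCUcaggucaccccuu
miR398b-3p: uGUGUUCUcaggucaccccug
miR398c-3p: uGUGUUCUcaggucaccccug
CSD1: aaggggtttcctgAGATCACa
CSD2: tgcgggtgacctgGGAAACAt
CCS: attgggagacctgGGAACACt
AT3G15640: aaggtgtgacctgAGAATCAc
With 1 point for a mismatch, 0.5 for a G:U pair and no gaps allowed, the stretches scored 3 for CSD1, 4.5 for CCS, 4.5 for AT3G15640 and 6.5 for CSD2, where 0 is a full match.

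The promoters of FSD1 and ZIP2 are shown because both genes rose at least 2-fold here and SPL7 is known to act through GTAC, which the capitals mark. Each is the 250 bases before the annotated start, at chr4:12887012-12887261 on the minus strand for FSD1 and at chr5:23992909-23993158 on the minus strand for ZIP2.
FSD1: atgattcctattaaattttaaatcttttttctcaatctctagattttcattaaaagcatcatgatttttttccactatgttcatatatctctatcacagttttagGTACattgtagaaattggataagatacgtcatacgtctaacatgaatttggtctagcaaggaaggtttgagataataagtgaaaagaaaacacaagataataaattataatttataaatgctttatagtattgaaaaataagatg
ZIP2: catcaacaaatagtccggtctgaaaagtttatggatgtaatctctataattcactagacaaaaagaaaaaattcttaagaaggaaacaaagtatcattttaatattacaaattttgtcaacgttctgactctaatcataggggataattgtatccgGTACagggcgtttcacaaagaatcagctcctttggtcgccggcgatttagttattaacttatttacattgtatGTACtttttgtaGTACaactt
The FSD1 stretch held 1 match and the ZIP2 stretch 3. These 4 letters are their own reverse complement and stood in 34.69% of all promoters and in 5 of 16 of the copper list, so their presence is common. The motif was chosen after the values had been seen.

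Most members of the iron list were lower, as were the copper and zinc enzymes. Of the 19 tested, 11 were lower, 3 higher and 5 uncalled, with a median log2 fold change of -0.42. The list does not hold the coumarin synthesis genes AT3G12900 and CYP82C4, given below, which were called higher, at 2.07 and 0.93. BHLH100 (AT2G41240), a transcription factor of the iron deficiency response, held 1815, 1825 and 1711 normalised counts in the 3-stress and 444, 419 and 386 in the 4-stress libraries and fell 4.28-fold (log2 fold change -2.10 ± 0.12 SE, adjusted p = 1.7e-17). Its relative BHLH38 (AT3G56970) held 945, 859 and 839 without and 262, 255 and 215 with the heat label and fell 3.61-fold (log2 fold change -1.85 ± 0.15 SE, adjusted p = 4.5e-13). For both, the controls lay between the groups, at 833 ± 33.8 (SD, n = 3) and 338 ± 23.3 (SD, n = 3). The relatives BHLH39 and BHLH101 were lower, at -1.16 and -0.75 on the log2 scale, and the iron-regulated peptide genes AT1G47400 and AT1G47395 at -1.86 and -1.72.

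BTS (AT3G18290), a ubiquitin ligase that restrains iron uptake, held 17580.2, 18171 and 17725 in the 3-stress and 10902, 11065 and 10953 in the 4-stress libraries (log2 fold change -0.70 ± 0.03 SE, adjusted p = 9.8e-24), and the regulator PYE and the phloem transporter OPT3 were lower, at -0.55 and -0.59. FER1 (AT5G01600), a ferritin that stores iron in plastids, went the other way, from 10533, 10859 and 10699 to 18826, 18732 and 20029.8, a rise of 1.79-fold (log2 fold change 0.84 ± 0.03 SE, adjusted p = 6.3e-23) to the range of the controls at 18420.1 ± 544 (SD, n = 3). FER4 and NEET, an iron-sulfur protein that the study examined through overexpression and RNAi plants, rose by 0.39 and 0.28. The uptake genes of the root surface were not called. IRT1, the iron importer, held 6410.3, 6895 and 7021 in the 3-stress and 8089, 7594 and 6821 in the 4-stress libraries, with an adjusted p of 0.65, and its activator FIT held 923, 907 and 912 without and 849, 824 and 801 with the heat label, with an adjusted p of 0.43, although it was called lower when only the groups compared were fitted.

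Among the genes through which warmth acts on growth, all 5 PIF genes tested were higher, with a median of 0.26. PIF4 (AT2G43010), the main factor of growth in warmth, held 3438, 3600.0 and 3552 normalised counts in the 3-stress libraries and 6313, 6285 and 6403 in the 4-stress libraries, with 2244 ± 70.9 (SD, n = 3) in the controls. The 3 groups thus followed each other without overlap, and the rise over the 3-stress libraries was 1.79-fold (log2 fold change 0.84 ± 0.03 SE, adjusted p = 9.8e-24). PIF5 (AT3G59060) held 3141, 3140.4 and 2961 without and 4552, 4443 and 4401 with the heat label (log2 fold change 0.54 ± 0.03 SE, adjusted p = 3.9e-18). Of 16 warm and shade growth genes, 5 were higher, 0 lower and 11 uncalled, and 13 did not overlap on the higher side (23.6% of all genes did not). IAA29 (AT4G32280), an auxin-induced repressor and PIF target, held 286, 273 and 279 without and 659, 701 and 677 with the heat label against 68.0 ± 17.8 (SD, n = 3) in the controls, a rise of 2.43-fold (log2 fold change 1.28 ± 0.16 SE, adjusted p = 1.8e-08). The auxin synthesis gene YUC8 and the PIF antagonist HFR1 rose by 0.65 and 0.55 on the log2 scale. Of 8 Aux/IAA repressors, the family of IAA29, 3 were higher and 5 uncalled. The SAUR19 to SAUR24 genes, near-identical copies whose reads may be shared, had log2 fold changes of 0.21 to 0.58 with SAUR23 alone called.

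The circadian clock list had 14 of 22 members higher, 2 lower and 6 uncalled, with a median of 0.28. PRR7 (AT5G02810), a repressor of the day, held 5087, 5150.3 and 4820.4 in the 3-stress and 8795, 8858 and 8925 in the 4-stress libraries and rose 1.77-fold (log2 fold change 0.82 ± 0.03 SE, adjusted p = 1.5e-22). GI (AT1G22770), which links clock and flowering, held 3253, 3398 and 3375 without and 5033, 5307 and 5222 with the heat label (log2 fold change 0.63 ± 0.03 SE, adjusted p = 7.3e-23). PRR9, LNK2, LNK1, PRR5 and FKF1 rose by 0.63, 0.55, 0.53, 0.47 and 0.45. LHY (AT1G01060), a repressor of the morning, held 5774, 5772 and 5641 without and 4765, 4644 and 4563 with the heat label and fell (log2 fold change -0.30 ± 0.04 SE, adjusted p = 1.5e-08), while its partner CCA1 held 3517, 3584 and 3499 without and 3817, 3691 and 3616 with the heat label, which did not overlap but were not called (adjusted p = 0.12).

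COR27 (AT5G42900), a clock gene that also responds to cold, held 1533, 1377 and 1373 in the 3-stress and 1889, 1907 and 1894 in the 4-stress libraries (log2 fold change 0.41 ± 0.06 SE, adjusted p = 2.2e-06). The evening element AAAATATCT, a motif that clock factors bind, was searched on both strands of the 250 bases before each start. It stood in 2.386% of all promoters of this length and in 6 of 22 of the clock list. Of these 6 genes 5 were called higher, beside 14 of 22 in the whole clock list. The G-box CACGTG, which PIF factors bind, stood in 7.387% of all promoters and in 7 of 22 of the clock list, with 3 of these 7 genes higher and 1 lower. It stood in 1 of 16 of the warm and shade list, which was not called. In the light harvesting list it stood in 5 of 21, with 4 higher and 1 lower.

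**Figure D4:**
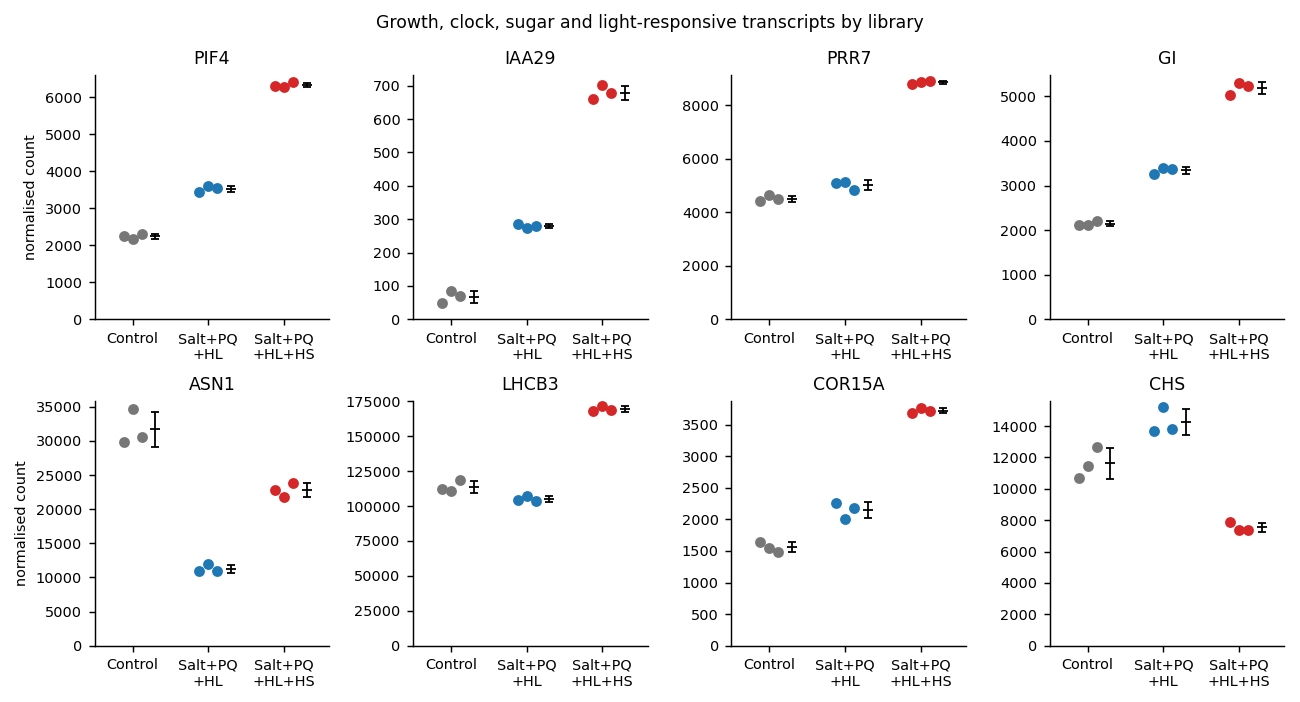
Normalised counts of growth, clock, sugar, photosynthesis, cold and flavonoid transcripts in each library (points) of the control, 3-stress and 4-stress groups, with bars for the mean ± SD of 3 libraries on axes from 0. PIF4, IAA29, PRR7, GI, LHCB3 and COR15A were highest in the 4-stress libraries, ASN1 lay between the other groups and CHS was lowest there.

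Genes known from cold and from the drought hormone abscisic acid were higher in 9 of 18 cases, lower in 2 and uncalled in 7, with a median of 0.20. COR15A (AT2G42540), which protects chloroplast membranes in the cold, held 2255, 2013 and 2183 in the 3-stress and 3689, 3763 and 3717 in the 4-stress libraries and rose 1.73-fold (log2 fold change 0.79 ± 0.07 SE, adjusted p = 3.3e-12). RD29A and KIN2 rose by 0.52 and 0.55, and CBF2, the factor upstream of many cold genes, rose by 0.82, from 84.0, 56.6 and 80.3 to 158, 120.0 and 112 normalised counts. KIN1 (AT5G15960), the neighbour and close copy of KIN2, was lower (log2 fold change -0.32 ± 0.07 SE, adjusted p = 0.000246), and reads of such pairs may be shared. The fatty acid desaturases, which set membrane fluidity, were 2 higher, 1 lower and 2 uncalled of 5, with FAD2 at 0.42 and FAD8, the isoform of cool leaves, at -0.31. The phosphatases of abscisic acid signalling were 2 higher, 2 lower and 5 uncalled of 9, or 22.2% each way beside 15.4% and 14.5% of all genes.

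Photosynthetic antenna genes were higher. Of 21 light harvesting and Rubisco small subunit genes, 16 were higher, 4 lower and 1 uncalled, with a median of 0.48. LHCB3 (AT5G54270), an antenna protein of photosystem II, held 104488, 107057 and 103398 in the 3-stress and 168284, 171859.7 and 168559.9 in the 4-stress libraries, above all controls (log2 fold change 0.69 ± 0.03 SE, adjusted p = 4.6e-21). LHCA4, of photosystem I, rose 1.54-fold (log2 fold change 0.62 ± 0.03 SE, adjusted p = 1.2e-19). All 16 higher members were antenna genes, from 0.32 for LHCB4.1 to 0.82 for LHCB1.4, though LHCB1.1, LHCB1.2 and LHCB1.3 are near-identical copies. The antenna gene LHCB4.3, known as a gene of strong light, was lower at -0.48, and so were the Rubisco genes RBCS1B, RBCS2B and RBCS3B, at -0.27, -0.22 and -0.20. Of 18 genes of chlorophyll synthesis and breakdown 8 were higher, 3 lower and 7 uncalled, led by PORA, an enzyme of chlorophyll synthesis, at 0.87.

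Genes of strong light and of flavonoid pigments were lower in 13 of 17 cases and higher in none, with a median of -0.51. CHS (AT5G13930), the first enzyme of flavonoid synthesis, held 13705, 15211 and 13835 in the 3-stress and 7891, 7353 and 7382 in the 4-stress libraries, and fell 1.89-fold to below all controls (log2 fold change -0.92 ± 0.08 SE, adjusted p = 4.3e-13). ELIP2 (AT4G14690) held 1139, 1021 and 1083 without and 474, 294 and 549 with the heat label (log2 fold change -1.35 ± 0.13 SE, adjusted p = 1.2e-11), and ELIP1 held 681, 723 and 671 without and 556, 516 and 427 with the heat label (log2 fold change -0.48 ± 0.07 SE, adjusted p = 2.7e-07). FLS1, CHI and the regulator MYB111 were lower, at -1.03, -0.84 and -1.08. Both groups carry the HL label, so this list differed between libraries with the same labelled light.

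Genes induced by a lack of sugar were higher in 10 of 12 cases and lower in none, with a median of 0.29. ASN1 (AT3G47340), an asparagine synthetase repressed by sugar, held 10984, 11923 and 10896 in the 3-stress and 22856, 21859 and 23868 in the 4-stress libraries and rose 2.03-fold (log2 fold change 1.02 ± 0.07 SE, adjusted p = 2.4e-15), still below the controls at 31716 ± 2607 (SD, n = 3). SEN1 (AT4G35770) held 13636, 14021 and 13032 without and 26166, 24909 and 27094 with the heat label (log2 fold change 0.94 ± 0.07 SE, adjusted p = 6.6e-14), and BGLU30 (AT3G60140) held 729.6, 795 and 776 without and 1653, 1492 and 1922 with the heat label (log2 fold change 1.13 ± 0.12 SE, adjusted p = 1.4e-10). Of 13 genes of starch breakdown 7 were higher, among them the amylase AMY3 at 0.41, and 3 were lower, all of them beta-amylases (BAM1, BAM3 and BAM9, at -0.18, -0.21 and -0.31).

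Most genes of the defence lists were lower. Of 8 members each, 6 were lower and 0 higher in the ethylene and jasmonate list and in the salicylic acid and camalexin list, with medians of -1.21 and -1.29. PDF1.2 (AT5G44420), a defensin, held 250.4, 294 and 317 in the 3-stress and 52.7, 46.0 and 60.8 in the 4-stress libraries, both above the controls at 10.4 ± 7.66 (SD, n = 3), and fell 5.33-fold (log2 fold change -2.42 ± 0.41 SE, adjusted p = 8.4e-06). The close copies PDF1.2b, PDF1.2c and PDF1.3, which may share reads with it, were at -2.29, -2.47 and -1.96 on the log2 scale.

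BGL2 (AT3G57260), a glucanase induced by salicylic acid, held 80.7, 162 and 204 without and 14.0, 11.9 and 17.2 with the heat label and fell 9.18-fold (log2 fold change -3.20 ± 0.58 SE, adjusted p = 2.3e-05). PR1, the usual marker of that hormone, held 30.0, 32.7 and 14.1 without and 31.3, 39.2 and 28.1 with the heat label, which overlapped, and was not called (adjusted p = 0.61). CYP71A12 (AT2G30750), an enzyme of indole defence compounds, held 576, 910.4 and 584 without and 127, 93.7 and 184 with the heat label and fell 5.16-fold (log2 fold change -2.37 ± 0.27 SE, adjusted p = 2.0e-09), below the controls at 1511 ± 194 (SD, n = 3). Its close copy CYP71A13, at 20.8 counts or fewer, was at -2.66, a size that rests on the pseudocount (-4.09 with 0.1 and -0.96 with 10). The camalexin enzyme PAD3 was at -0.76 and CYP82C2 at -1.81, which was not called with a pseudocount of 0.1 (adjusted p = 0.0518). AOX1D (AT1G32350), an alternative oxidase, held 70.7, 58.3 and 50.6 without and 8.23, 7.66 and 32.0 with the heat label with replicate 3 of the 4-stress group above its 2 peers (log2 fold change -2.13 ± 0.33 SE, adjusted p = 1.9e-06, and -2.75 without that library). The 9 genes of the oxidative stress list, to which it belongs, were 3 higher, 3 lower and 3 uncalled. The 15 of aliphatic glucosinolate synthesis were 3 lower (20%, beside 14.5% of all genes) and 12 uncalled.

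Of the 10 jasmonate synthesis and response genes 3 were lower and 7 uncalled, led by VSP1 (AT5G24780), a storage protein and wound marker, with 686, 683 and 666 in the 3-stress and 326, 301 and 314 in the 4-stress libraries (log2 fold change -1.11 ± 0.10 SE, adjusted p = 1.7e-12). The synthesis gene AOS held 10770, 10629 and 11068 in the 3-stress and 10744, 11035 and 10727 in the 4-stress libraries, which overlapped (adjusted p = 0.98). Among the 9 genes that the study followed through mutants or overexpression, APX1, EIN2 and NEET were higher, RBOHD and ATG9 lower, and AOS, ICS1, ABA2 and MBF1C were not called. All 5 changes were at most 0.28 on the log2 scale. RBOHD (AT5G47910), the oxidase that produces superoxide for signalling, held 3119.8, 3483 and 3247 without and 2741, 2777 and 2759 with the heat label (log2 fold change -0.25 ± 0.04 SE, adjusted p = 7.2e-06).

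Root genes fell with the heat label. Of the 11 root markers tested 6 were lower, 0 higher and 5 uncalled, with a median of -0.57, and their summed level was 5616 to 5946 in the 4-stress, 8876 to 9758 in the 3-stress and 5134 to 5929.6 normalised counts in the control libraries. None of the 11 was at 0 in the libraries compared. EXPA7 (AT1G12560), an expansin of root hairs, held 862, 871 and 953 in the 3-stress and 363, 405 and 362 in the 4-stress libraries (log2 fold change -1.25 ± 0.17 SE, adjusted p = 1.1e-07), against 241 ± 17.0 (SD, n = 3) in the controls. COBL9 and LRX1, also of root hairs, and CASP4, of the endodermis, were lower, at -1.01, -1.17 and -1.11. WOX5, of the root stem cell niche, held 14.1, 16.8 and 22.3 in the 3-stress and 20.6, 15.3 and 24.2 in the 4-stress libraries and was not called (adjusted p = 0.60). In RNA of whole seedlings fewer root cells and less RNA of these genes per cell cannot be told apart. The part of root tissue in the iron, defence and copper results was not tested.

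The triterpene gene clusters expressed in roots, listed after the values had been seen, were lower in all 7 members, with a median of -1.40. MRN1 (AT5G42600), marneral synthase, held 587, 504 and 596 in the 3-stress and 42.0, 117 and 86.5 in the 4-stress libraries and fell 7.37-fold (log2 fold change -2.88 ± 0.21 SE, adjusted p = 1.2e-14). THAS (AT5G48010), thalianol synthase, held 5801, 5730.1 and 5768 without and 2119.9, 2297 and 2477 with the heat label (log2 fold change -1.33 ± 0.11 SE, adjusted p = 1.9e-13). PIP2;4 (AT5G60660), a root aquaporin, held 1637, 1732 and 1688 without and 841, 834 and 887 with the heat label (log2 fold change -0.98 ± 0.12 SE, adjusted p = 7.8e-09). The 13 aquaporins as a list were 4 higher (30.8%), 2 lower (15.4%) and 7 uncalled, beside 15.4% higher and 14.5% lower of all genes. Seed storage markers were not called in any of 6 cases, and their sum was 711 to 901 in the 4-stress, 709 to 818 in the 3-stress and 1027 to 1317 normalised counts in the control libraries. Cell cycle genes were uncalled in 16 of 17 cases, and the type-A response regulators, reporters of cytokinin, were lower in 6 of 9 and higher in none, with ARR3 and ARR7 at -0.53 and -0.52.

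By size, the rises were led by genes outside these lists. AT3G54530, for which the annotation gives no function, held 15.8, 15.0 and 20.8 normalised counts in the 3-stress libraries and 171, 163 and 137 in the 4-stress libraries, which returned it to the range of the controls at 158 ± 16.0 (SD, n = 3). It rose 8.72-fold (log2 fold change 3.12 ± 0.45 SE, adjusted p = 3.4e-07), the largest rise among called genes with a mean of at least 50 and no overlap. AT3G12900, an oxygenase of coumarin synthesis, held 73.2, 96.3 and 90.7 without and 427, 396 and 285 with the heat label (log2 fold change 2.07 ± 0.74 SE, adjusted p = 0.029), but its adjusted p was 0.0520 to 0.0841 without 4-stress replicate 1 or 2 or any single 3-stress replicate, and 0.182 with a pseudocount of 0.1. Next came AT5G24640 at 1.54, the pectin-degrading enzyme ADPG2 at 1.48, the defensin-like AT4G11393 at 1.37, the ethylene synthesis enzyme ACS8 at 1.32, the wall enzyme XTH25 at 1.31, FLP1, IAA29 and the glucosidase BGLU28 at 1.26.

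TAT3 (AT2G24850), a tyrosine aminotransferase induced by jasmonate, showed the largest fall under the same rule. It held 226, 213 and 254 in the 3-stress libraries and 5.76, 7.66 and 7.02 in the 4-stress libraries, with the controls between them at 39.8 ± 11.0 (SD, n = 3), a fall of 29.8-fold (log2 fold change -4.90 ± 0.31 SE, adjusted p = 1.6e-16). At such low counts the size depends on the pseudocount, and with 10 in place of 1 the fall was 14.3-fold (log2 fold change -3.84). After it came BGL2, MRN1, PDF1.2c and PDF1.2, then the berberine bridge enzyme genes AT1G26380 and AT1G26390 at -2.38 and -2.31, CYP71A12, the defensin-like AT1G13608 at -2.31 and PDF1.2b. Of these 10 genes 5 are members of the defence lists, including the close copies PDF1.2, PDF1.2b and PDF1.2c, which may share reads.

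The added heat label was also compared with HS alone, which shares no library with it. In HS against Control 71.4% of genes were called, with a median absolute log2 fold change of 0.33, and in HL + HS against HL the median was 0.51. Of the 1330 genes that were called and at least 2-fold higher in HS (6.18% of those tested), 309 (23.2%) were higher here and 267 (20.1%) lower, beside 15.4% and 14.5% of all genes, with a median log2 fold change of 0.02 here and 1.39 there. Of the 2007 such genes in HL + HS against HL (9.32%), 572 (28.5%) were higher here and 208 (10.4%) lower, beside the same shares of all genes. Across the 21536 genes, which are not independent replicates, log2 fold changes here had a Pearson r of 0.12 with those of HS alone and of 0.24 with those of HL + HS against HL.

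Single genes show what the small r holds. LNK1 was higher by 2.47 on the log2 scale in HS against Control and by 0.53 here, PRR7 by 2.21 and 0.82, GI by 2.00 and 0.63, and IAA29 by 2.30 and 1.28. HSP101 was higher by 4.03 there but at -0.26 here, and PDF1.2 was higher by 4.44 there but at -2.42 here. FSD1 was not called in HS against Control, at -0.06 (adjusted p = 0.0935), and CSD1, CSD2 and CCS were lower there too, by smaller amounts than here, at -0.21, -0.51 and -0.32.

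The test of the difference itself, the change here minus the change in HS against Control, called 5922 genes with a higher value here (27.5%) and 6772 with a lower one (31.4%). Against the change in HL + HS over HL it called 15792 genes (73.3%). The heat markers did not rise in the 4-stress libraries and were lower in HS than in Salt, PQ or HL, as given above. Both comparisons are therefore between labelled groups, and whether these seedlings and those of the HS libraries met the same heat was not tested.

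**Figure D5:**
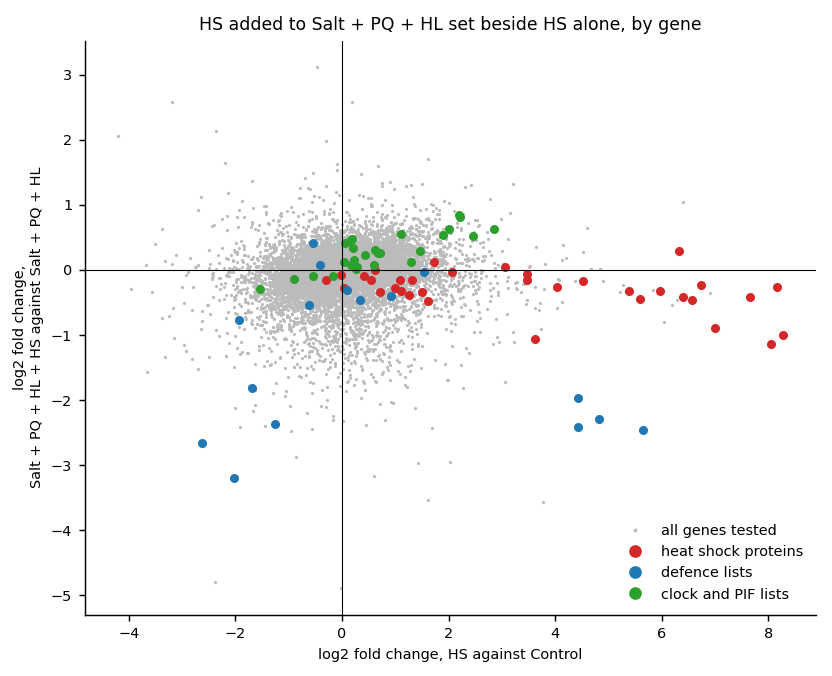
Log2 fold change of each of the 21536 genes tested in HS against Control (horizontal axis) and in Salt + PQ + HL + HS against Salt + PQ + HL (vertical axis). Heat shock proteins (red) lay far to the right and mostly just under 0 on the vertical axis, clock and PIF genes (green) mostly above 0, and the defence lists (blue) mostly below.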

How the data were processed

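RNA was sequenced from Control seedlings and from 15 treatments made of Salt, PQ, HL and HS and all of their combinations, with 3 libraries per group. Per the submitters' processing notes the authors used FastQC 0.11.7, STAR 2.4.0.1, TAIR10 and DESeq2 1.20.0, and the strand of counting is not given in the sources used here, so reads of overlapping or antisense genes cannot be told apart. The signal values deposited by the authors are reads per gene divided by a size factor of the library, not scaled to gene length. All values (100%) were whole multiples of their library's step within 0.001, so whole reads were recovered. Every column had a sample (0 were left out), and groups came from the labels.

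The test was that of limma 3.58.1 (R 4.3.3), whose prior variance followed a trend. It was fitted to log2(normalised count + 1), a scale that understates fold changes of low genes, for genes with a mean of at least 10. The means of all 16 groups and the spread of each gene were estimated jointly from the 48 libraries. P-values were adjusted over all genes tested by the Benjamini-Hochberg method and genes under 0.05 were called. The procedure was tested on simulated data. A count of 0 allows up to 3 reads per library, by counting error only. The unit needed a test on log values, and count tests on the recovered reads, edgeR 4.0.16 and DESeq2 1.42.0, were alternatives, beside other pseudocounts, filters, scalings, samples in the fit, a replicate block and each library left out. Tables and plots used Python 3.11.15, pandas 2.3.3, numpy 2.4.6, scipy 1.17.1 and matplotlib 3.10.9.

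The members and gene lists were chosen with earlier results of these data known. Named genes are members of these lists, led by those with the largest changes and the defining members, the 10 largest rises and 10 largest falls among called genes with a mean of at least 50 and no overlap between groups, and the genes whose change differed most from that in HS alone. The copper and triterpene lists were added after the values had been seen. Sequences were read from RefSeq TAIR10.1 by locus identifier, since the table holds no coordinates, and promoters were the 250 bases before each annotated start.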

Additional observations from a re-analysis of the deposited data

Results flagged for a closer look

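The change from Salt + PQ + HL to Salt + PQ + HL + HS and the change from Control to HS were set against each other in a test of their difference. The change was higher in the first for 5922 genes and lower for 6772, and against the change from HL to HL + HS the test called 15792 genes. Groups of 3 libraries are too small for a check of single outlying samples.

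The genes with the largest differences were taken among those called in the test against HS alone, whose groups did not overlap in either comparison. They also had a mean of at least 50 over the libraries of both comparisons. Among them, AT3G12900 differed by 6.27 on the log2 scale, since it was at 2.07 here and at -4.20 in HS against Control, although its call here was lost when any single library but replicate 3 of the 4-stress group was left out and with a pseudocount of 0.1 (adjusted p = 0.182). AT3G28510, a gene of a P-loop nucleotide-binding protein, differed by 5.77 (2.58, or 1.91 with a pseudocount of 10, and -3.18). AT3G01260 differed by 4.00, with 0.63 here, which was not called (adjusted p = 0.105) except with a pseudocount of 10, with only the groups compared, by edgeR and by DESeq2, and -3.37 there. CYP82C4, a second oxygenase of coumarin synthesis, differed by 3.62 (0.93 and -2.70), with an adjusted p here of 0.0544 to 0.136 when any single library was left out. AT3G54530 differed by 3.59 (3.12 and -0.46).

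On the lower side, the small HSP AT1G53540 differed by -9.27 (-0.997 here and 8.28 in HS), HSP17.6II by -9.18 (-1.13 and 8.04) and HSP23.6 by -7.88 (-0.89 and 6.99). The means of these small HSPs were under 50 in the Control, 3-stress and 4-stress groups. They reached the minimum of 50 only through the HS libraries, at 15305, 12980 and 5189, so their differences are mostly those HS values. The defensins PDF1.2c and PDF1.2b differed by -8.11 (-2.47 and 5.64) and -7.11 (-2.29 and 4.82). In HS the heat markers were above Control, though below Salt, PQ and HL, and in the 4-stress libraries they were not, and the part of that in these differences was not tested.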

How the results depend on the processing

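The number of genes called, 6425, was 6415 and 6484 with pseudocounts of 0.1 and 10, 6174 without a filter, 7240 with only the groups compared, 6951 after quantile normalization, 7017 by edgeR and 6702 by DESeq2, and 5386 to 5702 with a library left out (2759 to 2975 higher and 2582 to 2787 lower). With a fold change of at least 2 it was 367, of which 51 were higher and 316 lower. Scaling to the same total gave 2154 higher and 4560 lower genes. For the difference from HS alone, that fold change left 2139 genes, 716 higher and 1423 lower, and a library left out gave 12197 to 12301 genes, 5614 to 5721 higher and 6550 to 6601 lower. For the difference from HL + HS against HL these were 4596 and 15410 to 15482. With a replicate block the counts were 6418, 12672 and 15767. It changed no call among the 103 of the named genes that were followed under all 15 alternatives. Replicate numbers did not pair the libraries, since same-numbered libraries correlated at -0.0278 to 0.0266 and none correlated best with its own number. Of 1545 values of these 103 genes under 15 alternatives, 1521 kept direction and call and 0 reversed. The other named genes were followed for direction only, under the scalings and count tests given above, where PIP1B reversed after quantile normalization. Among these 103 genes, 4 called ones lost the call under an alternative. HSP23.6 lost it also with only the groups compared (adjusted p = 0.0693) and by edgeR (0.0999). AT3G12900 lost it also without a filter (0.0514) and with a pseudocount of 0.1 (0.182). CYP82C4 lost it also without a filter (0.0676) and by DESeq2 (0.0681), and CYP82C2 lost it with a pseudocount of 0.1 (0.0518). The fold change itself moved by over 1.5 times in 4 of these genes, given here as log2 values. They were CYP71A13 (-4.09 and -0.96 with pseudocounts of 0.1 and 10, -2.03 after quantile normalization), TAT3 (-3.84) and AT3G28510 (1.91, both with a pseudocount of 10) and AOX1D (-2.75 without 4-stress replicate 3). The cause was not tested.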
